A study of Rattus norvegicus with 24 samples.

Results

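The genes that encode the factors of translation initiation and elongation were compared across 4 maternal treatments in the embryonic rat brain. Members were all genes of the deposited table whose symbol begins with Eif1 to Eif6, Eef1 or Eef2, without the kinases and binding proteins (symbols with ak or ebp) and without the gamma subunit genes of eIF2. This rule gave 52 members out of 17420 genes, of which 41 had a mean normalized value above 1 in each of the 4 groups and were tested among 5086 such genes. By its wording the rule also takes in a few genes that are not factors. The products of Eef2k and Eef2kmt modify eEF2, and that of Eif4enif1 binds and carries eIF4E. Eef1e1 encodes a scaffold protein of the aminoacyl-tRNA synthetase complex. Eif1ad, whose product has an eIF1A domain, was grouped by its symbol with eIF1 and eIF1A. The data were RNA sequencing of the developing hippocampus and neocortex of 24 Sprague-Dawley rat pups on embryonic day 18. The 4 groups held 6 pups each, 3 from each of 2 litters, so 2 treated dams stood behind each group. Saline dams were injected with saline on gestational day 17 and received the control diet with 20.3% protein from gestational day 11. MAM dams received methylazoxymethanol acetate, a DNA alkylating agent, at 22 mg/kg intraperitoneally on gestational day 17. Poly I:C dams received polyinosinic:polycytidylic acid, a double-stranded RNA that mimics viral infection, at 7.5 mg/kg on the same day. Tissue was taken 18 hours after these injections. Low Protein dams ate a diet with 6.1% protein from gestational day 11 to 18, and the sources used here give neither whether these dams were injected nor what the dams of the other treatments ate. The pups are named below by litter and pup, so that Saline 2.1 is the first pup of the second saline litter.

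Initiation factors bring the ribosome to the start codon of an mRNA. The eIF4F complex, made of the cap-binding protein eIF4E, a scaffold and the helicase eIF4A, opens the capped end of the mRNA. The small ribosomal subunit carries eIF1, eIF1A, the many-subunit eIF3 and a complex of eIF2, GTP and the initiator tRNA, and eIF5 and eIF5B complete the joining of the subunits. The exchange factor eIF2B recharges eIF2 with GTP, and phosphorylation of the eIF2 alpha subunit blocks this step during amino acid shortage and viral infection. During elongation eEF1A delivers each aminoacyl-tRNA, the eEF1B complex recharges eEF1A, and eEF2 moves the ribosome along. Many of these mRNAs carry a terminal oligopyrimidine (TOP) tract, a run of C and T at their 5′ end that ties their translation to nutrient signalling through mTOR. In neurons the paralog eEF1A2 takes over from eEF1A1 as cells mature.

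Values are the normalized values (TPM) of the authors' table, which sum to 70350.1 in every pup. They scale with the genomic span of a gene rather than with its transcript, so the level of a gene cannot be set against that of another, and genes are described by their differences between pups and groups. Sequencing depth, estimated from the smallest steps in the values, ranged from 24.3 to 63.2 M reads per pup, and the lowest member of any pup rested on about 22 reads. Markers of pallial tissue were present in every pup, with a summed value from 155.9 to 302.4. Markers of ganglionic and interneuron cells were present as well, from 46.4 to 97.3 in Saline and from 39.2 to 58.2 in Low Protein. Saline 2.1 had both the lowest pallial and the highest ganglionic sum of its group. Poly I:C 1.3 had the highest value of all 24 pups in 10 of the 41 members and the lowest in 6, so the counts of called members are also given without each of these pups. Since the tissue was sequenced in bulk, fewer cells of a type and less RNA per cell cannot be told apart.

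Each treatment was first compared with Saline. A member was called where limma gave an unadjusted p under 0.05. For Poly I:C and Low Protein the study also asked for a minimum fold change, which was not applied here. The largest log2 difference of a tested member from Saline was -0.31, in Eef1a2 in Poly I:C. In Low Protein 5 of the 41 members were called, all of them higher, beside 8.24% of all 5086 genes called in either direction and 3.66% called higher. These were Eef1a1, Eif2b1, Eif3h, Eif3i and Eif4a1, with differences of 0.091 to 0.14 on the log2 scale. In MAM limma called 0 members at an unadjusted p under 0.05, beside 11.2% of all genes, and the exact permutation test put 2, Eif1b and Eif3d, under that threshold. In Poly I:C the single called member, Eef1a2, was lower, beside 9.95% of all genes called in either direction and 5.7% called lower. No member passed a limma adjusted p under 0.05 in any comparison between groups. Against Saline 0.0197% of all genes passed it in MAM, with 0% in Poly I:C and likewise 0% in Low Protein. Poly I:C differed at this level from MAM in 3.46% and from Low Protein in 0.0393% of all genes, Low Protein from MAM in 0.0983%, and any of the 4 groups in 0.413%. Among the members the lowest adjusted p by limma against Saline was 0.404, for Eef1a2. Without Saline 2.1 the called members numbered 0 in Poly I:C, 2 in Low Protein and 3 in MAM, and without Poly I:C 1.3 they numbered 2, 5 and 1.

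The direction over the whole list differed between treatments, though each difference was small. In Low Protein 34 of 41 members had a positive log2 difference, with a median of 0.048, beside 47.8% of all genes and a median of -0.0054. In Poly I:C 36 of 41 members were on the positive side, with a median of 0.044, beside 53.2% of all genes and a median of 0.0081. In MAM only 13 of 41 were on the positive side, with a median of -0.043, which was close to the 32.1% and the median of -0.046 of all genes. The MAM median moved to -0.0044 and -0.010 under 2 other scalings of the pups, in which the share of higher among all called genes was 60.6% and 56.5%, beside 27.3% as deposited. The median standard error of a member's log2 difference was 0.056. Of the 6 tested ganglionic and interneuron markers, all were lower than in Saline in each treatment, with 0 called in Poly I:C, 3 in MAM and 4 in Low Protein. Of the 7 tested proliferation genes, 7 were on the positive side in Low Protein (1 called), 7 in Poly I:C (2 called) and 6 in MAM (2 called), with medians of 0.14, 0.22 and 0.10. Of the 5 tested pallial markers, 4 were on the positive side in each treatment, with 2 called higher in Low Protein and 1 each in MAM and Poly I:C. The part of these lists in the results was not tested. The 3 comparisons share the saline pups, so their directions are not independent of one another.

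**Figure D1:**
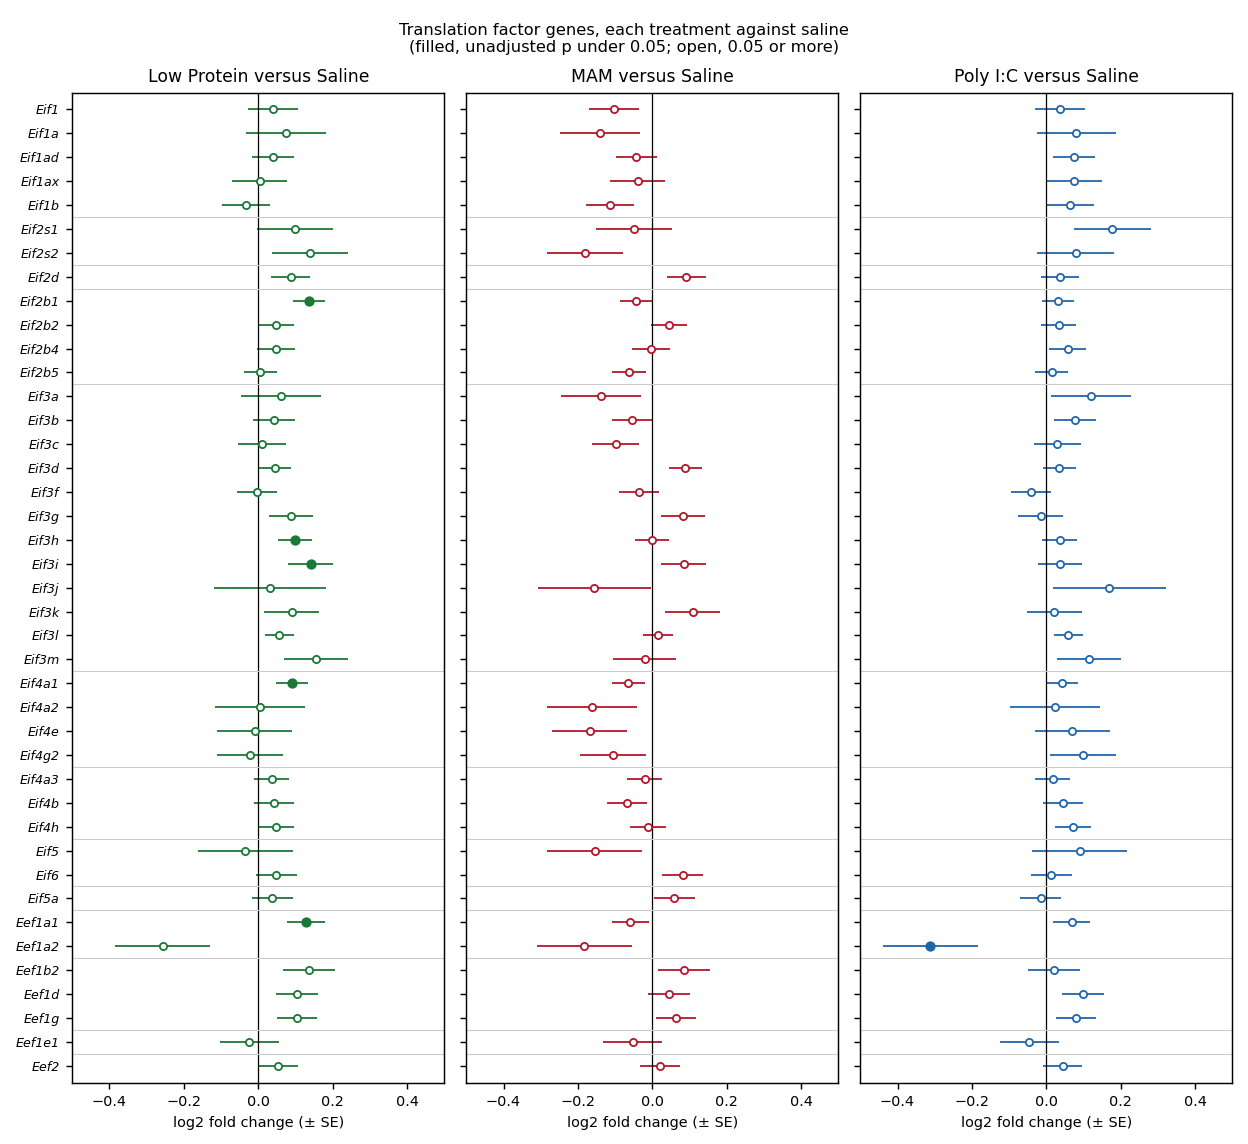
Log2 fold change of the 41 tested members against Saline, with 1 panel for each treatment. Points are differences of group means of 6 pups, bars are standard errors from limma, filled points have an unadjusted p under 0.05 and grey lines separate the complexes. Most points of Low Protein and Poly I:C lie right of 0, with 5 filled points in Low Protein, 0 in MAM and 1, Eef1a2 on the left, in Poly I:C.

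Among the elongation factors, Eef1a1 encodes the widespread form of eEF1A. Its value in Saline ran from 726 to 866 with a median of 819, and in Low Protein from 853 to 911 with a median of 883. Poly I:C pups lay between 817 and 896 with a median of 851, and MAM pups between 694 and 866 with a median of 785. The pups of Low Protein were thus high and close together, with 5 of the 6 above every saline pup, while Saline and MAM overlapped widely. The mean was 885 ± 23.6 in Low Protein and 811 ± 52.3 in Saline (SD, n = 6). The log2 difference was 0.13 (SE 0.050, limma unadjusted p = 0.0171, adjusted p = 0.543), and the exact permutation test over the pups gave p = 0.00649. The litter means were 892 and 878 in Low Protein and 814 and 808 in Saline. The call was lost without Saline 2.1, without either the second saline litter or the first Low Protein litter, and on litter means. Near-identical processed copies of Eef1a1 exist in mammalian genomes, and how their reads were shared is not known.

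Eef1a2, which encodes the form of neurons and muscle, was the member called in Poly I:C, where it was lower. It ran from 11.5 to 17.9 with a median of 12.9 in Saline and from 9.27 to 12.6 with a median of 11.6 in Low Protein. MAM pups lay between 9.41 and 14.3 with a median of 12.2, and Poly I:C pups between 7.45 and 13.3 with a median of 12.1. All groups overlapped, and the highest value of all was that of Saline 2.1. Against Saline the log2 difference was -0.31 in Poly I:C (SE 0.128, limma unadjusted p = 0.0230, adjusted p = 0.404), -0.26 in Low Protein (unadjusted p = 0.0560) and -0.18 in MAM (unadjusted p = 0.167). The exact permutation test gave p = 0.0866 for Poly I:C, 0.0433 for Low Protein and 0.186 for MAM, so limma and the exact test put different treatments under 0.05. In Poly I:C the litter means were 12.5 and 9.74. The low values were those of Poly I:C 2.2 and 2.3, at 7.45 and 9.33, while Poly I:C 2.1 of the same litter was at 12.4. The call was lost without Poly I:C 2.2, Poly I:C 2.3 or the second Poly I:C litter. It was also lost without Saline 2.1 or the second saline litter. In the direct contrasts Eef1a2 differed by 0.13 between MAM and Poly I:C (unadjusted p = 0.325) and by 0.054 between Low Protein and Poly I:C (unadjusted p = 0.678).

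The value of Eef1a2 as a percent of that of Eef1a1 was 1.71 ± 0.407 in Saline, 1.56 ± 0.317 in MAM, 1.31 ± 0.273 in Poly I:C and 1.29 ± 0.146 in Low Protein (SD, n = 6). Since the values scale with span, these percents compare groups only and are not shares of molecules. Of a fixed list of 7 genes of neuronal maturation, such as Snap25 and Syt1, 5 were tested and all 5 had negative differences from Saline in each treatment. Of these, 1 was called in Poly I:C, 1 in Low Protein and 3 in MAM, the treatment with the smallest difference in Eef1a2. Their summed value ran from 52.8 to 60.3 in Saline, 46.0 to 52.9 in MAM, 41.7 to 60.2 in Poly I:C and 43.6 to 55.2 in Low Protein. The litter means of this sum in Poly I:C were 57.2 and 45.2, so the second litter had the lower mean in both measures. The part of these genes in the Eef1a2 result was not tested.

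**Figure D2:**
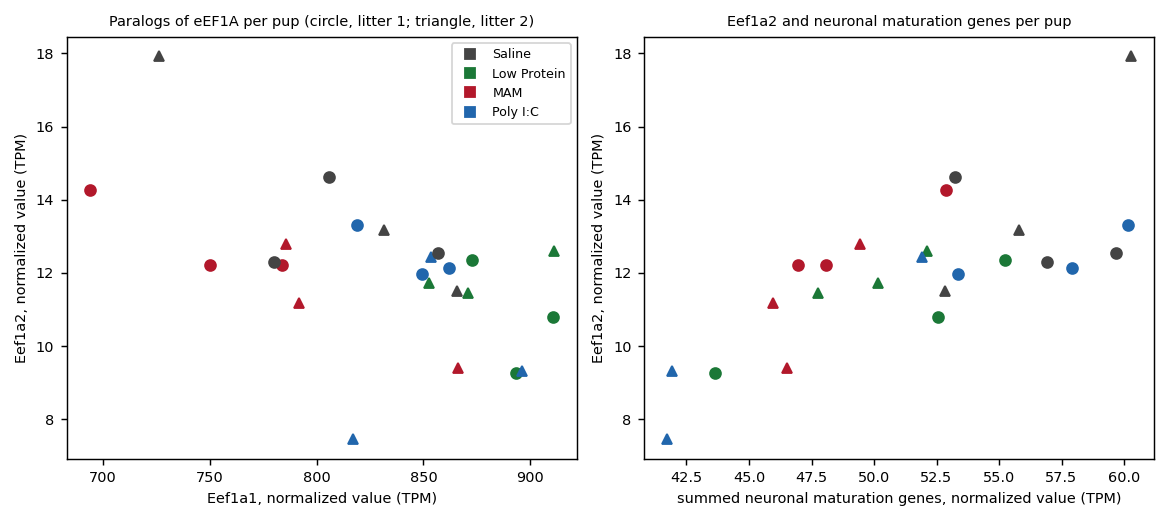
Normalized value of Eef1a2 in each of the 24 pups against that of Eef1a1 (left) and against the summed value of 7 genes of neuronal maturation (right). Colours are the groups, circles the first and triangles the second litter. Saline 2.1 stands at the top of both panels, and Poly I:C 2.2 and 2.3 lie low in Eef1a2 and low in neuronal maturation genes.

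The eEF1B exchange complex is encoded by Eef1b2, Eef1d and Eef1g. None was called, and all 3 lay on the positive side in every treatment. Eef1b2 ran from 45.0 to 56.8 with a median of 51.0 in Saline and from 51.6 to 66.0 with a median of 54.5 in Low Protein (log2 difference 0.14, SE 0.071, limma unadjusted p = 0.0668). The median of Eef1b2 was 52.9 in Poly I:C and 54.1 in MAM. Eef1g differed from Saline by 0.10 in Low Protein, 0.079 in Poly I:C and 0.063 in MAM, and Eef1d by 0.10, 0.099 and 0.046 in the same order. Eef2, the translocase, had medians of 310.3 in Saline, 328 in Low Protein, 331 in Poly I:C and 311 in MAM, and its log2 differences of 0.053, 0.044 and 0.021 were all smaller than their standard error. Eef1e1, which encodes a scaffold protein of the aminoacyl-tRNA synthetase complex, was at -0.024, -0.045 and -0.052.

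The start of a TOP mRNA is where nutrient signalling acts, so the transcription start windows of the members are shown for the factors called against Saline and for the known TOP mRNAs that have a RefSeq window. Eif3h, Eef1d and Eif4b have none. The windows run from 20 bases before to 30 bases after the RefSeq start in the GRCr8 assembly, a later build than the rn6 used for the values. Capitals mark CTTTC or CTTTT, the pyrimidine runs searched for on the sense strand. They were searched for anywhere in the window, and other runs of C and T were not counted. A window without capitals is therefore not shown to lack a TOP tract, nor is one with capitals shown to hold one. Relative to the start the first match began at -1 in Eef1a1, -17 in Eef1b2, -16 in Eef1g and 11 in Eif3f. Of the elongation factors, Eef1a1 (chr8:88225040-88225089, minus strand), Eef1b2 (chr9:72074071-72074120, plus strand) and Eef1g (chr1:215289795-215289844, plus strand) hold such a run, as does Eif3f (chr1:172369042-172369091, plus strand). Eef2 (chr7:9189209-9189258, minus strand), itself a known TOP mRNA, does not, and neither do Eef1a2 (chr3:188652604-188652653, minus strand), Eif2b1 (chr12:37686555-37686604, plus strand), Eif3i (chr5:147226881-147226930, minus strand) and Eif4a1 (chr10:54888573-54888622, minus strand).
Eef1a1: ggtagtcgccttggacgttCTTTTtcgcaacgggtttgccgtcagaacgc
Eef1b2: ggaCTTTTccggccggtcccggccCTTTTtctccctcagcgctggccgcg
Eef1g: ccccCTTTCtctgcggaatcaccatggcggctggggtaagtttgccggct
Eif3f: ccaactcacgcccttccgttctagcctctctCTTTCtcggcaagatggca
Eef2: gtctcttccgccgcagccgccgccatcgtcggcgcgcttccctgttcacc
Eef1a2: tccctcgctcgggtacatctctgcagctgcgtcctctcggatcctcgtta
Eif2b1: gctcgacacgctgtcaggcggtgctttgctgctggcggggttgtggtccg
Eif3i: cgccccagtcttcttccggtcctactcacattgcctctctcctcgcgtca
Eif4a1: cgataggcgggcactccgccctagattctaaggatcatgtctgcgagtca

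RefSeq windows were found for 47 of the 52 members. Of these, 10 held CTTTC or CTTTT on the sense strand (21.3%), beside 11.5% of 27457 promoters, namely Eef1a1, Eef1b2, Eef1g, Eif1ad, Eif2a, Eif3c, Eif3f, Eif3k, Eif3m and Eif4a2. On either strand the share was 21.3% of the members and 21.7% of all promoters, so the members did not exceed the promoters there. The 27457 promoters were not limited to the genes tested here. The palindrome CACGTG, bound by MYC and related factors, stood in the window from 250 bases before to 50 after the start in 10 members (21.3%), beside 6.65% of promoters. TGATGNAAT, a sequence bound by ATF4, stood in 0 members on either strand, beside 1.05% of promoters. These are matches of letters and were not tested as sites. Of 9 factor genes fixed as known TOP mRNAs, 8 were in the table and tested. In Low Protein 7 of these 8 lay on the positive side with a median of 0.10 and 2, Eef1a1 and Eif3h, called. In Poly I:C 7 of the 8 were also positive (median 0.044, 0 called), and in MAM 4 (median 0.0097, 0 called). Of all genes 47.8% were positive in Low Protein, 53.2% in Poly I:C and 32.1% in MAM. The shares of all genes called were 8.24%, 9.95% and 11.2% in the same order. The summed value of the 8 ran from 1179 to 1312 in Saline and from 1347 to 1362 in Low Protein. Eef1a1 dominates this sum, so it is not a result apart from that gene. Taken singly, 0 of the 41 members and 38 of all 5086 genes had no overlap between Low Protein and Saline. The ranges of 1267 to 1368 in Poly I:C and 1152 to 1325 in MAM overlapped with Saline.

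**Figure D3:**
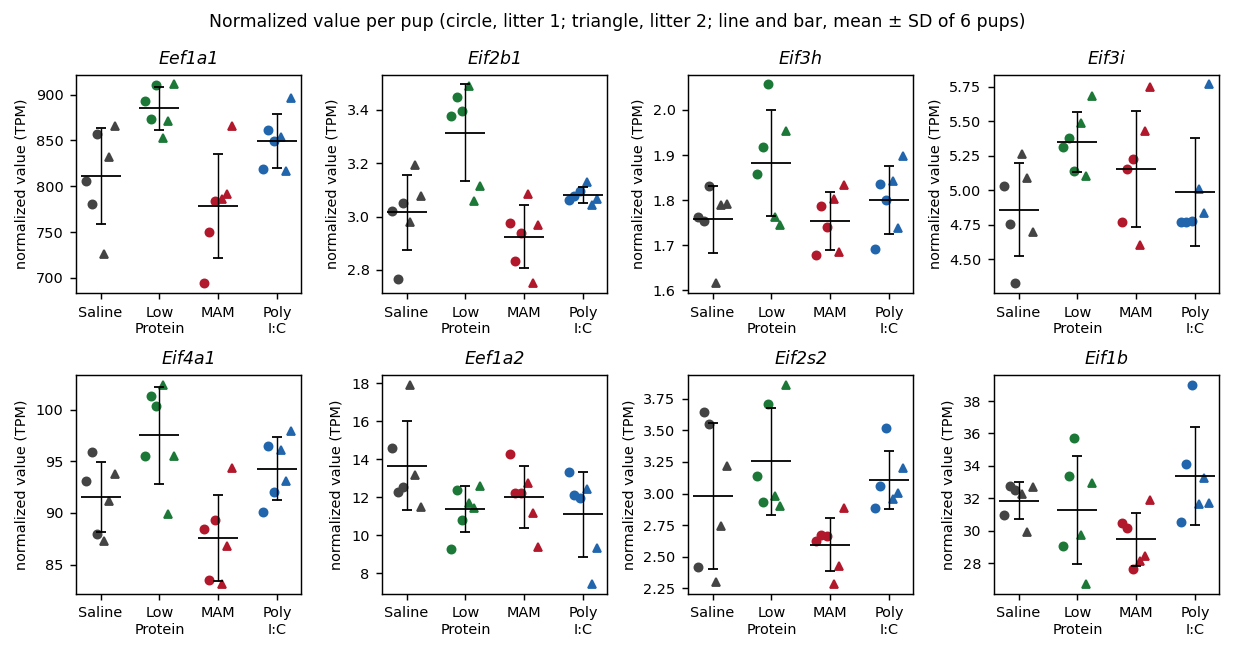
Normalized value of 8 members in each pup by group, with circles for the first litter, triangles for the second, and the mean ± SD of 6 pups as a line and bar. Axes do not start at 0. Low Protein pups sit high in Eef1a1, Eif2b1, Eif3i and Eif4a1, and all 6 Low Protein pups lie above all 6 MAM pups in Eif2s2.

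Among the genes of eIF2 and its exchange factor, Eif2b1, the alpha subunit of eIF2B that senses phosphorylated eIF2, had the lowest p of all members in the test over the 4 groups (limma moderated F, unadjusted p = 0.00266, adjusted p = 0.141). It ran from 2.77 to 3.19 with a median of 3.04 in Saline and from 3.06 to 3.49 with a median of 3.39 in Low Protein. MAM pups ran from 2.75 to 3.08 with a median of 2.95, and Poly I:C pups from 3.04 to 3.13 with a median of 3.07. Low Protein was the high group, with 4 of its 6 pups above every saline pup. The log2 difference from Saline was 0.14 (SE 0.043, limma unadjusted p = 0.00431, adjusted p = 0.479), and the exact permutation test gave p = 0.0152. Litter means were 3.41 and 3.22 in Low Protein and 2.95 and 3.08 in Saline, and the call was lost without the first Low Protein litter or the first saline litter and on litter means.

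The other tested eIF2B genes were near 0 in Low Protein. Eif2b2 differed from Saline by 0.048, Eif2b4 by 0.048 and Eif2b5, the catalytic subunit, by 0.0058, with standard errors of 0.045 to 0.050. Eif2b5 ran from 5.21 to 5.80 in Saline, 4.95 to 5.57 in MAM, 4.89 to 5.70 in Poly I:C and 5.12 to 5.70 in Low Protein, and all groups overlapped. Eif2s1, the alpha subunit of eIF2 that the stress kinases phosphorylate, had medians of 1.62 in Saline, 1.75 in Low Protein, 1.83 in Poly I:C and 1.56 in MAM, and was not called against Saline (log2 differences of 0.098, 0.18 and -0.049). Eif2s2, the beta subunit, had medians of 2.98, 3.06, 3.03 and 2.65 in the same groups, with differences of 0.14, 0.078 and -0.18. Eif2d, a factor that delivers tRNA without eIF2, was at 0.087, 0.037 and 0.092.

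In the cap-binding complex the called gene was Eif4a1, the more abundant helicase of dividing cells. Its value ran from 87.2 to 95.9 with a median of 92.1 in Saline and from 89.9 to 102.4 with a median of 98.0 in Low Protein. Poly I:C pups ran from 90.1 to 98.0 with a median of 94.6, and MAM pups from 83.1 to 94.3 with a median of 87.6. The groups overlapped, with 3 Low Protein pups above every saline pup. Against Saline the difference in Low Protein was 0.091 (SE 0.043, limma unadjusted p = 0.0455, adjusted p = 0.596, exact permutation p = 0.0346), and it passed the threshold in 23 of 44 alternative analyses. Its paralog Eif4a2, the helicase form of resting and neural cells, had medians of 36.4 in Saline, 37.0 in Low Protein, 34.7 in Poly I:C and 31.8 in MAM, and differed by 0.0039, 0.024 and -0.16 (SE 0.121).

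Eif4e, the cap-binding protein itself, had medians of 1.86 in Saline, 1.90 in Low Protein, 1.90 in Poly I:C and 1.69 in MAM, and differed from Saline by -0.0094, 0.070 and -0.17 (SE 0.101). Eif4g2, an eIF4G relative that does not bind eIF4E, had medians of 40.6, 40.1, 42.4 and 39.0 in the same groups and differed by -0.023, 0.098 and -0.11 (SE 0.089). All 4 tested genes of this group, Eif4g2 included, were on the negative side in MAM and on the positive side in Poly I:C. This also held under both other scalings, with none called. The scaffold of the complex is not covered, since Eif4g3 was below the level limit and Eif4g1 is not analysed here. Of the accessory factors, Eif4b, which stimulates the helicase, was at 0.043 in Low Protein, 0.045 in Poly I:C and -0.067 in MAM. Eif4h, of like function, was at 0.048, 0.072 and -0.011, and Eif4a3, a helicase of the exon junction complex, at 0.036, 0.017 and -0.021.

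The eIF3 complex supplied 12 tested genes, of which 2 were called in Low Protein, both higher. Of all genes 8.24% were called there in either direction and 3.66% called higher. None of the 12 was called in MAM or Poly I:C, beside 11.2% and 9.95% of all genes. Eif3i ran from 4.32 to 5.27 with a median of 4.89 in Saline and from 5.10 to 5.68 with a median of 5.35 in Low Protein. MAM pups ran from 4.60 to 5.75 with a median of 5.19 and Poly I:C pups from 4.77 to 5.77 with a median of 4.81, and 4 Low Protein pups lay above every saline pup. The log2 difference was 0.14 (SE 0.060, limma unadjusted p = 0.0278, adjusted p = 0.570, exact permutation p = 0.0108), and it was lost in 7 of 44 alternatives, among them each without Low Protein 2.3, Saline 1.3 or Saline 2.3.

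Eif3h, another eIF3 subunit gene, ran from 1.62 to 1.83 with a median of 1.78 in Saline and from 1.75 to 2.06 with a median of 1.89 in Low Protein. Its median was 1.82 in Poly I:C and 1.76 in MAM. The lowest saline pup was Saline 2.1, and 4 Low Protein pups lay above all saline pups. The difference of 0.098 (SE 0.046, limma unadjusted p = 0.0443, adjusted p = 0.596, exact permutation p = 0.0584) was lost in 20 of 44 alternatives. In all 5 members called in Low Protein both litter means of Low Protein lay above both of Saline, which was also so, or the reverse, in 35.8% of all genes.

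Across eIF3, 11 of 12 genes were on the positive side in Low Protein (median 0.058; 12 of 12 under either other scaling) and 10 of 12 in Poly I:C (median 0.036). In MAM 5 of 12 were on the positive side with a median of -0.011, which turned to 0.028 and 0.022 under the other scalings. The subunits lay on both sides of Saline in MAM. Eif3a, the scaffold, and Eif3j, a loosely bound subunit, were at -0.14 and -0.16, while Eif3d, a cap-binding subunit, and Eif3k were at 0.088 and 0.11. Eif3d ran from 6.68 to 7.27 in Saline and from 7.15 to 7.69 in MAM, so that the groups overlapped only at their edges (exact permutation p = 0.0108, limma unadjusted p = 0.0580). Eif3b was at 0.042 in Low Protein, 0.078 in Poly I:C and -0.054 in MAM, and Eif3f at -0.0044, -0.040 and -0.036. Over the 12 genes the Spearman correlation between the log2 difference and genomic span was 0.64 in Poly I:C and -0.59 in MAM, beside 0.023 and -0.37 over 4782 genes. The 2 correlations share the saline pups and are a description only. Over the genes tested, single pups also had a trend of value with span. Its Spearman correlation ran from -0.37 in MAM 2.2 to 0.40 in Poly I:C 1.1. Eif3h, of the longest span, was at -0.0018 in MAM and at 0.12 with that trend removed in each pup.

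The remaining initiation genes were not called against Saline. Eif1, the start codon fidelity factor, ran from 82.0 to 96.3 with a median of 85.0 in Saline, and its medians were 87.5 in Low Protein, 87.3 in Poly I:C and 81.3 in MAM. Eif1b, its paralog, ran from 29.9 to 32.8 in Saline and from 27.6 to 31.9 in MAM (log2 difference -0.11, SE 0.065, limma unadjusted p = 0.0929, exact permutation p = 0.0173). Eif1ax, the X-linked eIF1A gene, was at 0.0035 in Low Protein, 0.074 in Poly I:C and -0.040 in MAM. All 5 genes grouped as eIF1 and eIF1A, with Eif1ad, were on the negative side in MAM under each of the 3 scalings. In Poly I:C all 5 were on the positive side under each. Eif1ax turned to 0.0036 in MAM once the trend with span was removed. Eif5, the GTPase activator, had medians of 12.0 in Saline, 11.7 in Low Protein, 12.5 in Poly I:C and 10.7 in MAM, with a standard error of 0.128 that exceeded the difference in Poly I:C and Low Protein. Eif6, which keeps the large subunit apart, was at 0.048, 0.013 and 0.082, and Eif5a, the hypusine-bearing factor, at 0.037, -0.015 and 0.059.

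The treatments were then compared directly with each other, in contrasts that also share groups among themselves. Between MAM and Poly I:C 13 of 41 members were called (31.7%), each lower in MAM, beside 23.1% of all genes called in either direction and 17.1% called lower in MAM. Of the 41 members 11 had a positive difference, beside 37.8% of all genes. Those called were both tested eIF2 genes (Eif2s1, Eif2s2) and 3 of 5 genes grouped as eIF1 and eIF1A (Eif1, Eif1ad, Eif1b). The rest were 3 of 4 genes grouped with the cap complex (Eif4a1, Eif4e, Eif4g2), 3 of 12 of eIF3 (Eif3a, Eif3b, Eif3j), Eif4b and Eef1a1. The log2 differences of the 13 ran from -0.33 to -0.11, and the lowest adjusted p by limma was 0.109, for Eif1b. The count depended on the scaling, with 3 members called under median of ratios scaling, 2 of them higher in MAM, and 4 under upper quartile scaling, beside 22.6% and 23% of all genes. Of all called genes 26% were higher in MAM as deposited, and 50.1% and 41.1% under these scalings. Without Poly I:C 1.3 the count was 9, without Saline 2.1 it was 14, and leaving out other pups or litters moved it between 5, without the second MAM litter, and 15.

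Eif2s2 was among those called. Its value ran from 2.29 to 2.89 with a median of 2.65 in MAM, while Poly I:C pups ran from 2.88 to 3.52 with a median of 3.03, so 5 MAM pups lay below every Poly I:C pup. The log2 difference was -0.26 (SE 0.102, limma unadjusted p = 0.0182, adjusted p = 0.131, exact permutation p = 0.00433). The call was lost under median of ratios scaling, with the trend with span removed (limma unadjusted p = 0.0979), and without the second MAM or the first Poly I:C litter. Eif3j ran from 0.924 to 1.39 in MAM, against 1.20 to 2.11 in Poly I:C (log2 difference -0.33, SE 0.151, limma unadjusted p = 0.0417). Eif4e ran from 1.47 to 1.89 in MAM, against 1.77 to 2.49 in Poly I:C, the highest being Poly I:C 1.3 (log2 difference -0.24, limma unadjusted p = 0.0268). Without that pup the calls of Eif4e, Eif4g2, Eif2s1, Eif3j, Eif1 and Eif1ad were lost.

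Low Protein differed from MAM in 7 of 41 members (17.1%), all higher in Low Protein, beside 11% of all genes called in either direction and 8.79% called higher. Of the 41 members 35 had a positive difference, beside 62.7% of all genes. Eif2s2 ran from 2.90 to 3.86 with a median of 3.06 in Low Protein and from 2.29 to 2.89 with a median of 2.65 in MAM, and the groups did not overlap. Such separation, in either direction, was seen in 1.1% of all genes. The log2 difference was 0.32 (SE 0.102, limma unadjusted p = 0.00448, adjusted p = 0.222, exact permutation p = 0.00216, the smallest that 6 against 6 pups can give). Eif2b1 differed by 0.18 (SE 0.043, limma unadjusted p = 0.000350, adjusted p = 0.105), Eef1a1 by 0.19 (SE 0.050, limma unadjusted p = 0.000979, adjusted p = 0.139) and Eif4a1 by 0.15 (SE 0.043, limma unadjusted p = 0.00145, adjusted p = 0.161). These 4 calls held in all 44 alternatives at the unadjusted threshold. The others were Eif1, Eif3h and Eif3m, at 0.14, 0.10 and 0.18, which were lost in 16 to 25 of the alternatives. Without either Saline 2.1 or Poly I:C 1.3 the count was 9. Under either other scaling 4 members were called, and the share of higher among all called genes was 79.8% as deposited and 54.4% and 58% under those scalings.

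**Figure D4:**
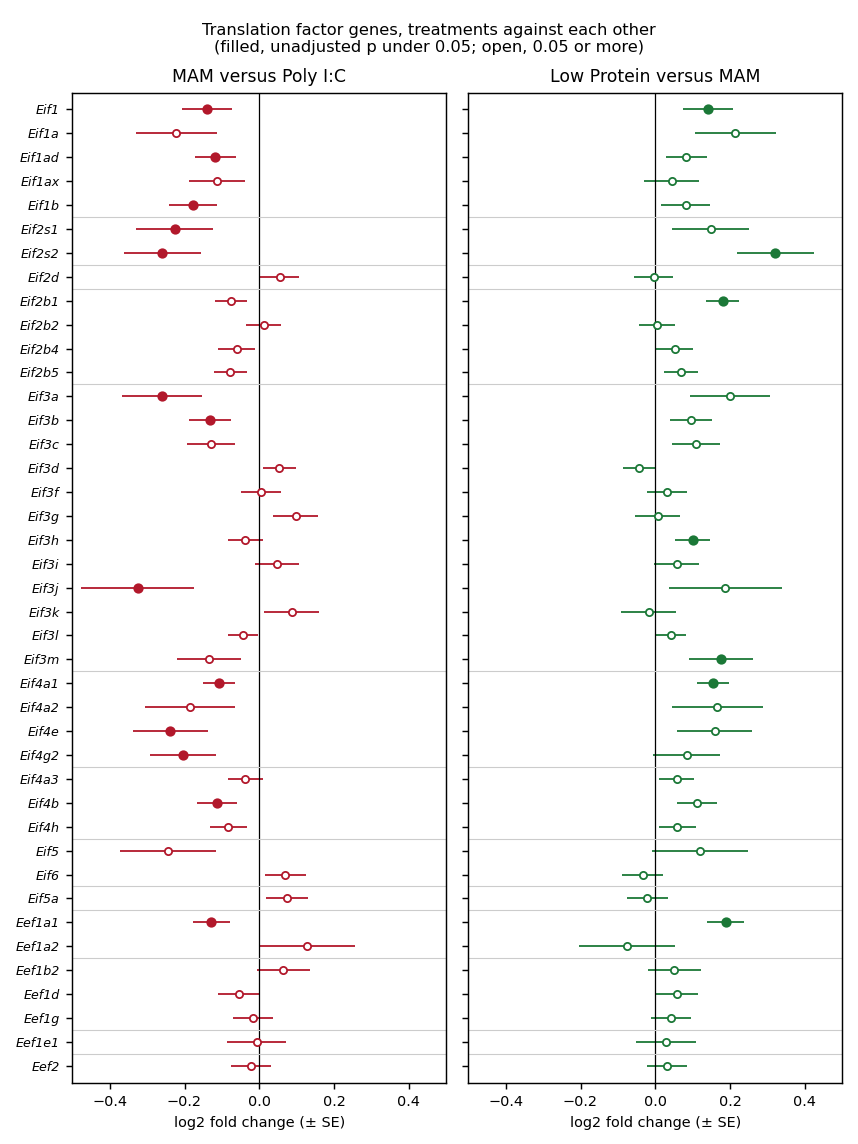
Log2 fold change of the 41 tested members between MAM and Poly I:C (left) and between Low Protein and MAM (right), with standard errors from limma and filled points for an unadjusted p under 0.05. The 13 filled points on the left are all below 0 and the 7 on the right all above 0, with Eif2s2 at -0.26 and 0.32.

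Between Low Protein and Poly I:C 1 member, Eif2b1, was called, beside 5.31% of all genes called in either direction and 2.95% called higher, at 0.10 higher in Low Protein (SE 0.043, limma unadjusted p = 0.0235, adjusted p = 0.897). Of the 41 members 23 had a positive difference, beside 44.3% of all genes. Over the 4 groups together the limma moderated F test called 4 members, Eif2b1, Eef1a1, Eif4a1 and Eif2s2, beside 16.4% of all genes, with 6 called without Poly I:C 1.3 and 4 without Saline 2.1.

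The regulators of these factors were taken from lists fixed beside the members. Of 27 genes of translation control 14 were tested. Against Saline none was called in Low Protein, beside 8.24% of all genes. In MAM and Poly I:C 1 each was called, beside 11.2% and 9.95% of all genes. These were Ppp1r15b, which directs the phosphatase of eIF2 alpha, at -0.15 in MAM (limma unadjusted p = 0.0495, adjusted p = 0.440), and Rps6kb2, a kinase downstream of mTOR, at -0.15 in Poly I:C (limma unadjusted p = 0.0106, adjusted p = 0.325). Ppp1r15b also differed between MAM and Poly I:C by -0.26, with a limma adjusted p of 0.0482. Eif2ak1, the tested eIF2 alpha kinase, was within 0.075 of Saline in each treatment. Of the 10 genes of termination and recycling 5 were tested. Etf1, the release factor that reads stop codons, differed by -0.19 between MAM and Saline (limma unadjusted p = 0.00425, adjusted p = 0.380). Between MAM and Poly I:C it differed by -0.26 (limma adjusted p = 0.0226). For Ppp1r15b and Etf1 alike, 3.46% of all genes passed an adjusted p under 0.05 between MAM and Poly I:C. The count of members called in that comparison depended on the scaling.

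The 11 members below the level limit were Eef2k, Eef2kmt, Eif2a, Eif2b3, Eif3el1, Eif4e2, Eif4e3, Eif4enif1, Eif4g3, Eif5a2 and Eif5b, with group means from 0.140 to 1.04. With the limit lowered to 0.1, all 52 members were among 9713 genes. Of the 11, limma then called 5 between MAM and Poly I:C, all lower in MAM, beside 21.7% of these genes, 2 between Low Protein and MAM beside 9.81%, and 2 in MAM against Saline beside 10.5%. Against Saline it called 0 in Poly I:C beside 9.87% and 0 in Low Protein beside 7.64%, and Poly I:C differed from Low Protein in 0 beside 4.96%. The exact permutation test also put none of the 11 under 0.05 in these 3 comparisons. Eif5b, the subunit-joining GTPase, ran from 0.499 to 0.655 in MAM, from 0.498 to 0.812 in Saline and from 0.618 to 0.808 in Poly I:C. It differed by -0.36 between MAM and Poly I:C (limma unadjusted p = 0.00455 among the 9713 genes, exact permutation p = 0.0108). Eif2b3, an eIF2B subunit, ran from 0.229 to 0.265 in Low Protein and from 0.197 to 0.229 in MAM, with every Low Protein pup above every MAM pup (exact permutation p = 0.00216), beside 0.978% of the 9713 genes without overlap in either direction. Eif4e3, a cap-binding relative of eIF4E, was lower in all 6 MAM pups than in all 6 Poly I:C pups, with ranges from 0.131 to 0.162 and from 0.167 to 0.204 (exact permutation p = 0.00216), beside 4.14% of the 9713 genes without overlap. These last 2 were singled out after their values were seen. Eef2k, the kinase that inhibits eEF2, had medians of 0.795 in Saline, 0.741 in Low Protein, 0.708 in Poly I:C and 0.747 in MAM, all overlapping. Eif3el1 has a span of 1376 bases and resembles a copy of Eif3e, which is not analysed here, so their reads may be mixed.

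The members also differed between pups of 1 group. The pup of highest value among all 24 was Poly I:C 1.3 for Eif1, Eif1b, Eif2s1, Eif3j, Eif3m, Eif4a2, Eif4e, Eif4g2, Eif4h and Eif5. In 8 of these 10 genes the highest saline pup was Saline 1.3, and in 9 the highest Low Protein pup was Low Protein 1.3, while MAM 1.3 was highest in its group in 0. Eif5 was at 18.5 in Poly I:C 1.3 beside 10.8 to 12.6 in the other 5 Poly I:C pups, and Eif4g2 at 59.5 beside 39.1 to 44.7. Poly I:C 1.3 was also lowest of all 24 pups in Eef2, Eif2b5, Eif2d, Eif3c, Eif3d and Eif3g. In 3 of these 6 genes the lowest saline pup was Saline 1.3. Low Protein 1.3 and MAM 1.3 were each lowest in their group in 0 of the 6. The estimated depth of Poly I:C 1.3 was 28.3 M reads, beside 28.6 and 28.2 M in the other pups of its litter. Its summed choroid plexus markers were at 33.1, the lowest of all 24 pups, beside 142 to 248 in the other Poly I:C pups. The sum was 125 in Saline 1.3, 160 in Low Protein 1.3 and 57.3 in MAM 1.3. The part of these markers in the member values was not tested.

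**Figure D5:**
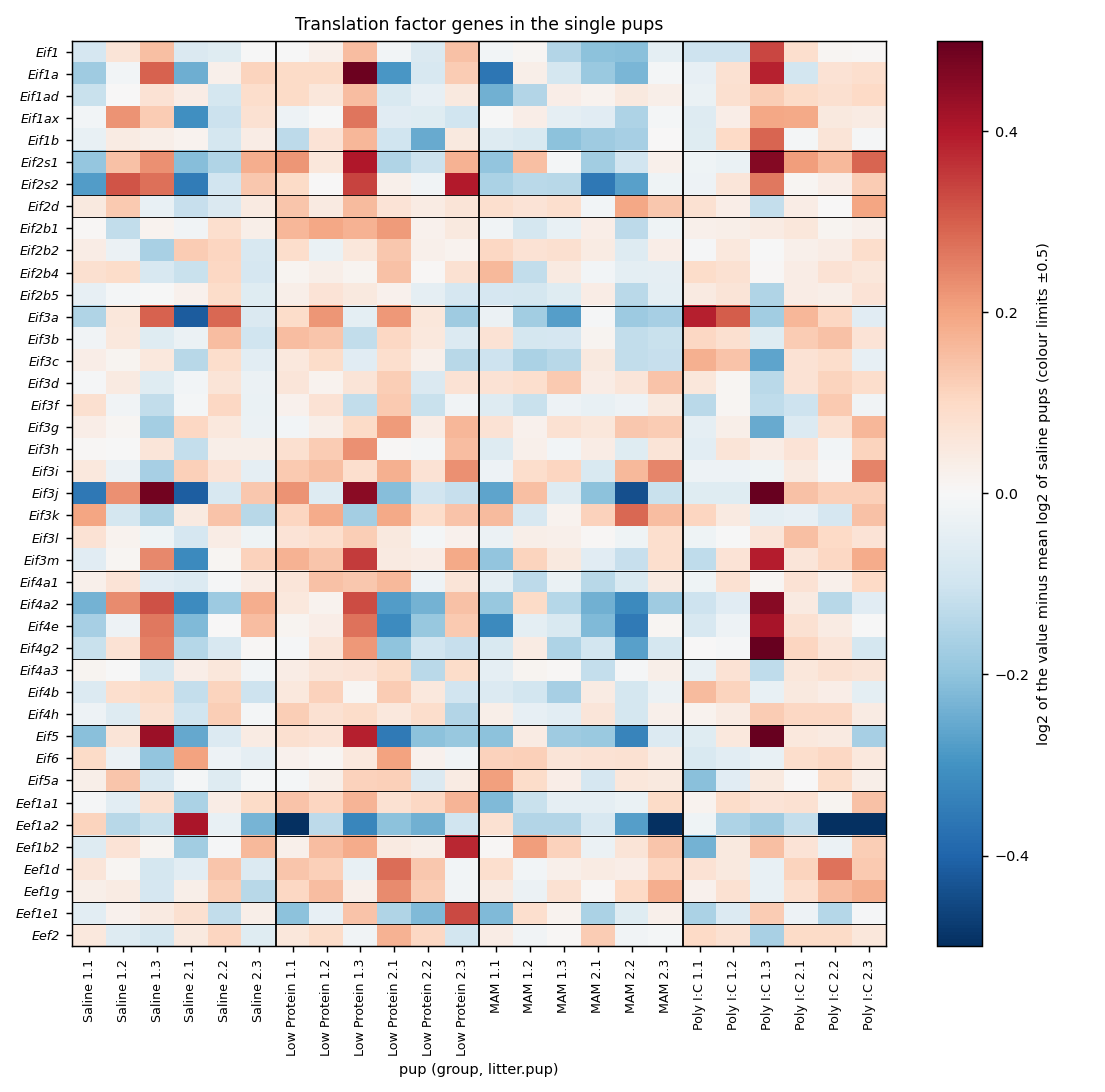
Log2 of the value in each pup minus the mean log2 of the saline pups, for the 41 tested members (rows, ordered by complex) and 24 pups (columns), with colours limited to ±0.5. Poly I:C 1.3 stands out as a dark red column in Eif5, Eif4a2, Eif4g2 and Eif3j, with weaker columns of the same genes in Saline 1.3 and Low Protein 1.3.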

How the data were processed

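RNA sequencing of 24 pups was analysed from the processed table. The authors trimmed reads at phred 30 with a minimum length of 25, aligned them to rn6 with STAR 2.4.1d, quantified them against RefSeq transcripts with Partek, and deposited TPM values to which 0.0001 had been added. Of these values 20.9% equal the added constant. All samples were used. The log2 values were fitted with limma 3.58.1 in R 4.3.3 (lmFit and eBayes), with the 4 groups as a factor over 24 pups and 5086 genes with a mean above 1 in each group. The threshold was an unadjusted p under 0.05, and p-values adjusted by Benjamini-Hochberg over all 5086 genes stand beside it. The study's own test, Partek GSA, was not used here. Single members were also compared by exact two-sided permutation of 6 against 6 pups (924 splits, smallest p 0.00216). Depth was estimated from values that are multiples of 1 read, of which 46.6 to 52.1% of low values were within 0.05 of a whole number (10% by chance), so depths are approximate, and counting error was not modelled. Treatment was given to dams while pups were the replicates, so p-values measure spread between pups. Named with values are members called against Saline, landmark members and the members with the highest and lowest saline mean, a rule for naming only. Start windows are from RefSeq (GRCr8). The fit was tested on simulated data. The members and lists were chosen with earlier results of these data known. Alternatives covered filters, offsets, scaling, litter, replicate number, pups left out and, added after the data were seen, removal of the trend with genomic span.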

Additional observations from a re-analysis of the deposited data

Results flagged for a closer look

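In 104 sets of 6 pups, 1 pup stood farther from the rest than Dixon's 95% limit in 11 sets, where chance gives about 1 in 20. The pup Poly I:C 1.3 accounted for 7 of these. It was low in Eef2 at 278.0 (the other pups of its group were at 323.9 to 333.8), in Eif2b5 at 4.89 (5.54 to 5.70) and in Eif3b at 4.61 (5.05 to 5.32). It was high in Eif4a2 at 49.5 (32.8 to 37.2), in Eif4e at 2.49 (1.77 to 1.98), in Eif4g2 at 59.5 (39.1 to 44.7) and in Eif5 at 18.5 (10.8 to 12.6). Low Protein 1.3 was high in Eif1ax at 7.42 (5.76 to 6.16) and Low Protein 2.1 in Eif6 at 7.99 (6.86 to 7.20). Saline 2.1 was low in Eif3h at 1.62 (1.75 to 1.83). Poly I:C 2.3 was high in Eif3i at 5.77 (4.77 to 5.01). No member differed between treatments at an adjusted p under 0.05.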

How the results depend on the processing

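Of 99 named log2 differences the 27 called kept their sign in all 44 alternatives, 32 of which left out a pup or litter. Leaving out 1 pup or litter moved the members called in Low Protein between 0 (without Low Protein litter 1) and 6, with 2 without Saline 2.1. In MAM it gave 0 to 3 (3 without Saline 2.1), in Poly I:C 0 to 4 (4 without Poly I:C litter 1), between MAM and Poly I:C 5 to 15, between Low Protein and MAM 4 to 11, between Low Protein and Poly I:C 0 to 3, and over the 4 groups 1 to 6 (6 without Poly I:C 1.3). Medians against Saline ran from 0.028 to 0.088 in Low Protein, -0.048 to -0.026 in MAM and 0.032 to 0.069 in Poly I:C. In MAM the 0 called became 2 with the limit of 0.1, 2 with either other scaling, 2 with the span trend removed, and 1 with no filter, with 1 added to the value, on litter means or with only the 12 pups compared. The span trend moved the MAM median to 5.1e-05. The 13 between MAM and Poly I:C became 3 with median of ratios scaling, 4 with upper quartile scaling, 6 on litter means and 6 with the span trend removed, and the 7 between Low Protein and MAM became 4 with either scaling. In Low Protein litter means gave 1 and a random litter effect 3, and between Low Protein and Poly I:C litter means gave 0. Over the 4 groups the count was 7 with the limit of 0.1, 2 with median of ratios scaling and 2 on litter means. The cause was not tested. Of all genes, 419, 572 and 506 were called against Saline (Low Protein, then MAM, then Poly I:C), and 1176, 560 and 270 between MAM and Poly I:C, Low Protein and MAM, and Low Protein and Poly I:C. In the same order these counts were 742, 1023, 959, 2111, 953 and 482 with the limit of 0.1, 1024, 1387, 1298, 2440, 1211 and 715 with no filter, both over more genes, and 262, 250, 312, 768, 352 and 164 on litter means.

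Of the named differences that were not called, 30 changed sign in at least 1 alternative. Median of ratios scaling turned Eif3f to 0.0057 and Eif4e to 0.00072 in Low Protein, and Eif3f to 0.0029 and Eif3h to 0.037 in MAM. Upper quartile scaling turned Eif3f to 0.0048 in Low Protein and Eif3h to 0.031 in MAM. Removal of the span trend turned Eif4e to 0.025 in Low Protein, and Eif1ax to 0.0036, Eif2s1 to 0.018, Eif3b to 0.013 and Eif3h to 0.12 in MAM. Leaving out 1 pup or litter gave ranges that crossed 0. In Low Protein they were Eif4a2 -0.12 to 0.13, Eif2b5 -0.036 to 0.048, Eif1ax -0.11 to 0.12, Eif3f -0.031 to 0.019, Eif4e -0.12 to 0.11, Eif4g2 -0.14 to 0.091, Eif5 -0.25 to 0.18, Eif3a -0.023 to 0.13, Eif2s1 -0.029 to 0.23 and Eif1 -0.0046 to 0.083. In MAM they were Eif3h -0.026 to 0.019, Eif1ax -0.15 to 0.073, Eef1a1 -0.13 to 0.0072, Eef2 -0.011 to 0.053 and Eif2s1 -0.11 to 0.011. In Poly I:C they were Eif5a -0.072 to 0.042, Eef1b2 -0.015 to 0.072, Eif1 -0.022 to 0.081, Eif4a2 -0.081 to 0.13, Eif5 -0.023 to 0.20, Eif6 -0.055 to 0.081, Eif3i -0.024 to 0.097, Eif3f -0.084 to 0.0028, Eif2b5 -0.015 to 0.048, Eif2d -0.011 to 0.086, Eif2b1 -0.0014 to 0.065, Eif1ax -0.039 to 0.19 and Eif2s2 -0.025 to 0.18.

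Pups that share a number do not come from shared dams, so the numbers were not taken as pairs. Even so, in 22 of 36 pairs their deviations correlated above 0.1 (mean r 0.127, range -0.42 to 0.563). All 6 pairs of number 2.2 were at 0.196 or more, and 12 of 24 pups correlated best with their own number. What pups of 1 number may share was not tested. With the replicate number as a block the counts against Saline were 8 (Low Protein), 2 (Poly I:C) and 2 (MAM), with 9 over the 4 groups and 2 for Low Protein against Poly I:C, and 3 members passed an adjusted p under 0.05 between MAM and Poly I:C. With only the 12 pups compared 1 did, Eif2s2 (limma adjusted p = 0.0341). In the main fit 3.46% of all genes passed this adjusted threshold between MAM and Poly I:C. The shares of all genes under these other settings are not given here, so these counts are not read as particular to the members.

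With 2 litters a group, differences of litters and of treatment are poorly separated. Depth was estimated only, and levels of short and long genes are not comparable.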
